A study of Mus musculus with 6 samples.

Results

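The replication-dependent histone genes are the gene copies that supply H1, H2A, H2B, H3 and H4 protein for the packaging of newly made DNA. Members were all protein-coding genes of the GENCODE M21 annotation whose symbol starts with Hist1h, Hist2h, Hist3h or Hist4h, which gave 67 of the 55536 genes counted in every library. They comprised 6 H1, 18 H2A, 18 H2B, 12 H3 and 13 H4 genes, and 54 of them lay in the Hist1 cluster, 10 in Hist2, 2 in Hist3 and 1 in Hist4. Total RNA was sequenced from satellite cells, the stem cells of skeletal muscle, of C57BL/6J adult male mice. The 3 control samples came from Pax7CreErt2;Hira fl/+ mice, given as WT in the labels, and the 3 cKO samples from Pax7CreErt2;Hira fl/fl mice. Both groups therefore carried the tamoxifen-inducible Cre, which is expressed from the Pax7 locus, and at least 1 floxed Hira allele, and all mice received tamoxifen in their food. Cells were sorted by FACS as CD34+ and ITGA7+ cells negative for CD45, TER119 and SCA1 at 5 days after a chemical injury of the tibialis anterior muscle, and then cultured for 48 h at low density in high serum medium. Each sample was an independent RNA sample; whether each came from a separate mouse is not given in the sources used here, so p-values measure the spread between these samples.

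Histone proteins must be made in large amounts during S phase, when the DNA is copied. A nucleosome holds a pair each of H2A, H2B, H3 and H4, and H1 binds the DNA that enters and leaves it. The mRNAs of these genes are the only known mRNAs of animals that end, as a rule, in a conserved stem-loop instead of a poly(A) tail, and the stem-loop binding protein SLBP recognises that hairpin in processing, translation and decay. HIRA, the gene product removed here, is a chaperone that deposits the replacement histone H3.3 outside replication, and H3.3 itself is encoded by H3f3a and H3f3b, which are polyadenylated and are no members. The libraries were made after removal of ribosomal RNA and without selection for poly(A), so that mRNAs ending in a stem-loop were retained.

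The stem-loop was found in an annotated transcript of 46 of the 67 members (68.7%), against 24 of 21884 other protein-coding genes (0.110%). The following hairpins are shown because the base pairs of the stem separate the H4 genes from all other classes. Capitals mark both sides of the 6-base stem, the 4 bases between them are the loop, and the sequences are those of the GENCODE M21 transcripts of the mm10 genome in the sense of the mRNA.
Hist1h1c (H1): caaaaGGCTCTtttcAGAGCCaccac
Hist1h2ag (H2A): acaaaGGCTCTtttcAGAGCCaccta
Hist1h2bm (H2B): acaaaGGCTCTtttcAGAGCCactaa
Hist1h3b (H3): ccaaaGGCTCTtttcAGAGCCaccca
Hist1h4h (H4): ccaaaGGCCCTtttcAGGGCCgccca
Hist4h4 (H4): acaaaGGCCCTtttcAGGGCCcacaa
Hist1h4b (H4): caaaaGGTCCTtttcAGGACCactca
In all 4 H1, 11 H2A, 10 H2B and 9 H3 genes with a match the stem began with GGCTCT. It began with GGCCCT in 10 of the 12 H4 genes with a match and with GGTCCT in the other two, Hist1h4b and Hist1h4j. The gene models of some remaining members may stop short of the hairpin, as in Hist1h4k, whose model of 312 bases holds the reading frame alone. Those of Hist1h2bc, Hist1h2bq, Hist1h2br and Hist2h2be are longer, with 1156 to 2620 exon bases, and held no match either. The reason was not examined.

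The proximal promoters also differed between the classes. A RefSeq promoter (GRCm38.p6, 250 bases before to 50 after the start) was matched to 62 of the 67 members, and Hist1h2bc, Hist1h3a, Hist1h3f, Hist2h2be and Hist2h4 had none. The promoters of the most abundant H4 gene per length, of the most abundant H3 gene and of an H1 gene are shown, with matches to the motifs described after them in capitals.
Hist1h4k (chr13:21750504-21750803, minus strand): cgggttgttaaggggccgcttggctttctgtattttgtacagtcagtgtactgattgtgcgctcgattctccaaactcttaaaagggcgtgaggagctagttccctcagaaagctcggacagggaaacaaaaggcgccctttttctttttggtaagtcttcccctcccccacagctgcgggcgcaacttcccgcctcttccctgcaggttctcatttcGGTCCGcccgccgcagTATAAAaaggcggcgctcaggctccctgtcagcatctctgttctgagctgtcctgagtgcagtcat
Hist1h3b (chr13:23752095-23752394, plus strand): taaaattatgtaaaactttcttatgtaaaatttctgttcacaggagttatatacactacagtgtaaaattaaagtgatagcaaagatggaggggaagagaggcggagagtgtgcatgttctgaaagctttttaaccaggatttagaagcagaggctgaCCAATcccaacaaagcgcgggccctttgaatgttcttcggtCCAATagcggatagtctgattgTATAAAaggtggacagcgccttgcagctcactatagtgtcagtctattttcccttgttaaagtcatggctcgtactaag
Hist1h1c (chr13:23738557-23738856, plus strand): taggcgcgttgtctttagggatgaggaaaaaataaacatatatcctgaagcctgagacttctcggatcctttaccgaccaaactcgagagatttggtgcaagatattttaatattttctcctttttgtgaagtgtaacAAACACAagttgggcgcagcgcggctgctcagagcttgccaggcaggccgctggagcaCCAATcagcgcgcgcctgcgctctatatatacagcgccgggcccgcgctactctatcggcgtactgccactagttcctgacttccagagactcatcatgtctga
CCAAT, searched on both strands, was present in all 6 H1, 18 H2A, 16 H2B and 10 H3 promoters, in 3 of the 12 H4 promoters and in 37.3% of 32788 other promoters. GGTCCG on either strand was present in 11 of the 12 H4 promoters, in 1 H2B and 1 H3 promoter, and in 8.23% of the others. AAACACA on either strand was found in 5 of the 6 H1 promoters against 7.17% of the others, and the octamer ATTTGCAT in 7 H2A and 6 H2B promoters against 1.70% of the others. TATAAA on the sense strand was in 4 of the 6 H1, 10 of the 18 H2A, 4 of the 16 H2B, 4 of the 10 H3 and 8 of the 12 H4 promoters, against 8.24% of the others. These letters were chosen after the changes below had been seen, and a match describes the sequence only.

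At the protein level the H4 genes are copies of each other. All 13 H4 genes held the same reading frame of 103 codons, start codon included. Of the H3 genes, Hist1h3a, Hist1h3g, Hist1h3h and Hist1h3i encoded a protein that differed at 1 residue from that of Hist1h3b to Hist1h3f and Hist2h3b. The reading frames of 9 H2A genes were identical to each other, and the 6 H1 genes encoded 6 different proteins of 209 to 223 residues. A 75-base read from such copies can match more than 1 gene: 28 of the 67 members shared at least 50% of their 75-base transcript windows with another gene. Values of single copies are therefore uncertain, and sums over a class are less affected by how reads were divided among its copies.

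Libraries held 47944477 to 63323577 counts on genes. The targeted gene Hira (chr16:18877037-18970309) had 6.63, 5.50 and 5.55 counts per 1000000 counts on genes (CPM) in the control samples and 3.36, 4.95 and 4.87 CPM in the cKO samples. The groups did not overlap, and the fitted log2 fold change was -0.43 ± 0.12 (SE; adjusted p = 0.0237, quasi-likelihood F test of edgeR, Benjamini-Hochberg adjusted across the 22404 genes tested, as for every adjusted p below). It missed the threshold in at least 1 fit that left out a sample (adjusted p up to 0.104). The gene count covers all exons, and 44.7% of the exon bases overlap those of Gm28539 on the same strand, so residual counts do not measure residual intact Hira mRNA. Macrophage markers as a list of 20 genes summed to 157 to 163 CPM in the controls and 329 to 386 CPM in cKO, with 19 of the 20 higher in cKO; satellite cell and myoblast markers summed to 9433 to 9540 and 8370 to 8914 CPM. Of those 11 markers, Pax7, Myf5, Myod1 and 5 others were lower and Cd34 was higher. Over all genes tested, 6.46% were lower and 9.38% higher at an adjusted p under 0.05 in edgeR. In bulk RNA, fewer cells of a type and less RNA per cell cannot be told apart.

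Together the members received 3090, 3198 and 2995 CPM in the control samples and 2776, 2357 and 2857 CPM in cKO, that is 3094 ± 101 and 2663 ± 269 (SD, n = 3). The highest cKO sample was below the lowest control sample, and cKO replicate 2 was the lowest of all. The mean of the sums was 13.9% lower in cKO. Without cKO replicate 2 it was 8.98% lower. Among the classes, the mean sum of H1 differed least between the groups and that of H4 most.

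For the linker histone H1, the summed level was 677, 683 and 662 CPM in the controls and 680, 625 and 680 CPM in cKO. The groups overlapped, and the mean was 1.85% lower in cKO; without cKO replicate 2 it was higher in cKO. For H2A the sums were 93.7, 98.2 and 90.4 CPM against 91.1, 76.4 and 92.0 CPM, again with overlap. H2B summed to 739, 751 and 693 CPM in the controls and to 673, 558 and 688 CPM in cKO, a mean 12.1% lower with no overlap. H3 summed to 723, 727 and 666 CPM against 631, 556 and 649 CPM, a mean 13.2% lower and also without overlap. H4 received the most counts of the classes in every control sample, with 857, 938 and 883 CPM, and had 700, 542 and 747 CPM in cKO. Its mean was 25.8% lower, and the groups did not overlap. Without cKO replicate 2 the means were 2.71% lower for H2A, 6.44% for H2B, 9.25% for H3 and 19.0% for H4.

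**Figure D1:**
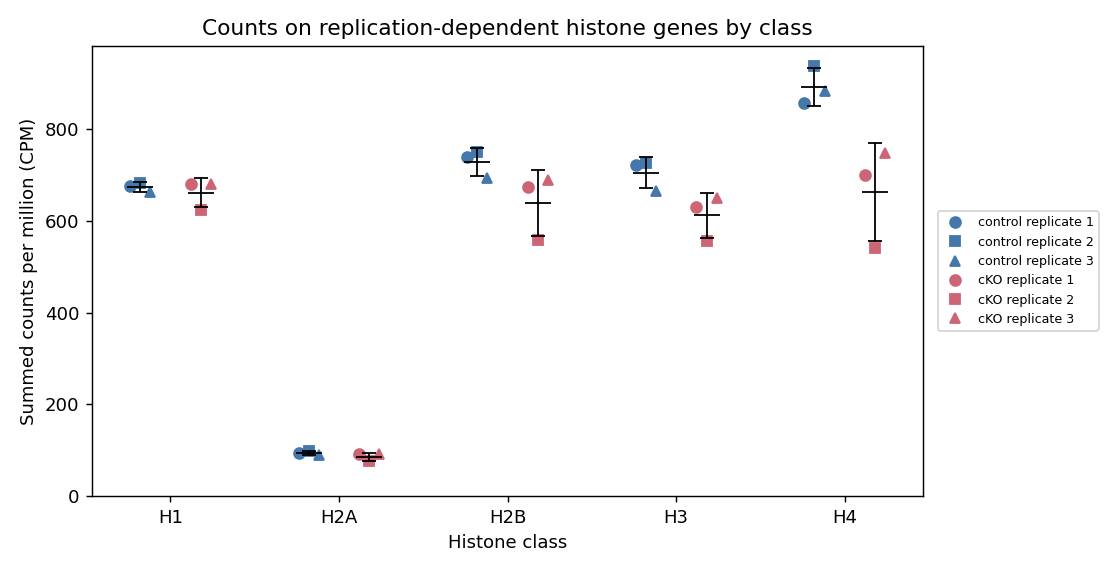
Summed CPM (y axis) on the members of each histone class (x axis) in the 3 control and 3 cKO samples, with 1 point per sample and the mean ± SD in black. H1 sums overlap between the groups, whereas H4 falls from 893 ± 41.4 to 663 ± 108 CPM and cKO replicate 2 is the lowest sample in every class.

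The same contrast within each sample does not depend on the scaling of the libraries. The ratio of H4 to H1 counts was 1.27, 1.37 and 1.33 in the controls and 1.03, 0.867 and 1.10 in cKO. Every cKO sample thus lay below every control sample. H4 made up 28.9% ± 0.962 of the counts on members in the controls and 24.8% ± 1.63 in cKO (SD, n = 3), and H1 21.8% ± 0.386 and 24.9% ± 1.40. The ratio of H3 to H1 fell from 1.05 ± 0.0346 to 0.924 ± 0.0319, and that of H2B to H1 from 1.08 ± 0.0283 to 0.965 ± 0.0633, both without overlap. The share of H3 among the members was 22.8% ± 0.575 and 23.0% ± 0.508, and overlapped.

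Of the 67 members, 60 passed the filter on low counts and were tested. Of these, 32 were lower in cKO at an adjusted p under 0.05 and 1 was higher, while 6.46% of all 22404 genes tested were called lower and 9.38% higher (1448 and 2101 genes, against 1057 and 2462 with libraries scaled by total counts, where 28 members were lower and 1 higher). Negative fold changes were found for 56 of the 60, and the median log2 fold change was -0.22, against 0.00 (-0.00111) for all genes tested. In CPM, the groups were apart with all of cKO lower for 32 of the 60 members, compared with 11.1% of all genes tested, and with all of cKO higher for 2, compared with 20.3%. The number of lower calls was 28 with DESeq2 and fell to 20 without control replicate 2. Of the 32 lower calls, 20 were called in each of the 6 fits that left out 1 sample, and 12 of these 20 were H4 genes.

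The classes formed an order. The median log2 fold change was -0.02 for H1 (5 genes tested, 1 lower), -0.21 for H2A (15 tested, 1 lower and 1 higher), -0.20 for H2B (17 tested, 8 lower), -0.24 for H3 (10 tested, 9 lower) and -0.50 for H4 (13 tested, 13 lower). The H2A, H2B and H3 medians are neighbours that lie within the median SE of a single member (0.056 to 0.093). That SE is not the error of a class median, and no order among these classes was tested. H4 had the lowest median and H1 the highest in the fit reported and in all 12 alternative fits. Of the 13 H4 genes, 11 lay below -0.36, the lowest fitted value of any other member. The medians depended on cKO replicate 2: without it they were 0.02 for H1, -0.11 for H2A, -0.12 for H2B, -0.16 for H3 and -0.35 for H4, and all 13 H4 genes were still called lower. DESeq2 called 9 of the 13 H4 genes lower, with 2 genes of H1, 0 of H2A, 8 of H2B and 9 of H3.

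**Figure D2:**
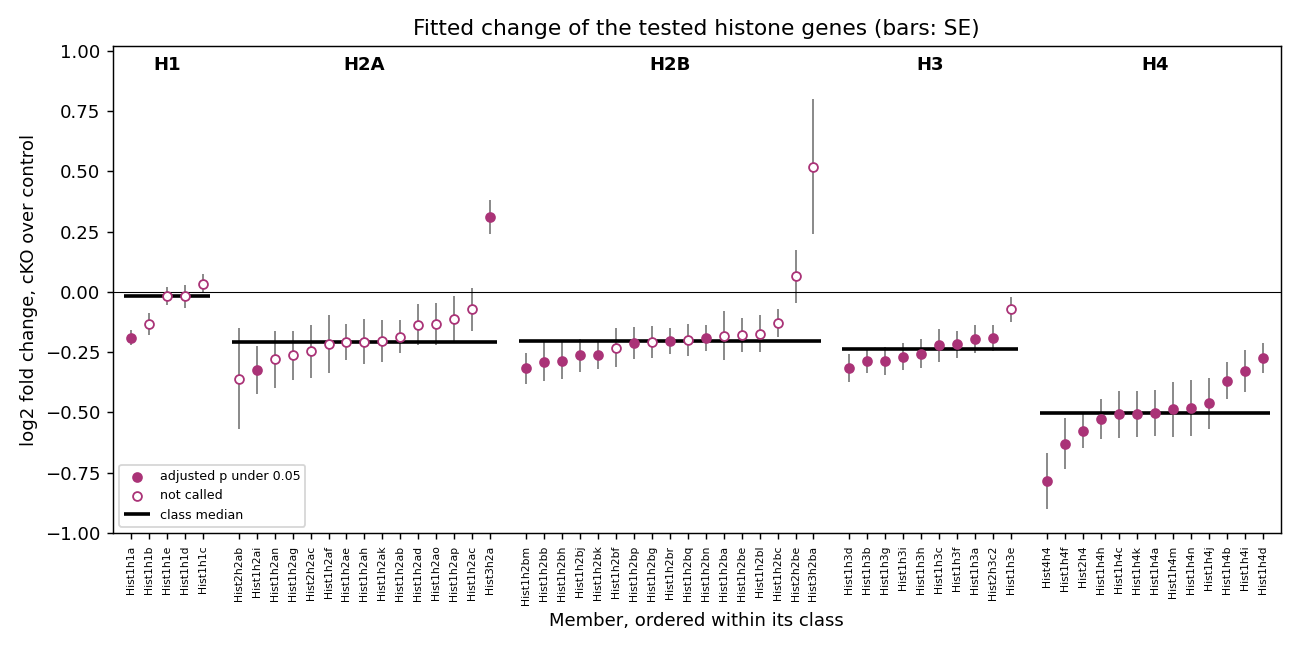
Fitted log2 fold change of cKO over control (y axis, ± SE) for the 60 members tested, ordered within each class (x axis), with filled points for an adjusted p under 0.05 in edgeR and black lines for class medians. All 13 H4 points are filled and below 0, the H1 median is -0.02, and Hist3h2a is the filled point above 0.

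H4 pairs with H3 to form the core of the nucleosome. Hist1h4k (chr13:21750194-21750505) had the highest level per length of all members, 205 CPM per kb of exon over all samples. It had 72.6, 78.4 and 72.7 CPM in the controls and 56.1, 42.2 and 62.2 CPM in cKO. Every cKO sample was lower, with a log2 fold change of -0.51 ± 0.095 (SE; edgeR adjusted p = 0.00165). Hist1h4h (chr13:23531050-23531519) had 87.4, 101 and 93.9 CPM against 70.2, 55.3 and 74.0 CPM, a log2 fold change of -0.53 ± 0.082 (edgeR adjusted p = 0.000341). Again the groups did not overlap and cKO replicate 2 was the lowest. Hist1h4d (chr13:23581598-23582735), with 3.67% of its windows shared, had 200, 210 and 194 CPM against 178, 148 and 182 CPM. Its log2 fold change of -0.27 ± 0.062 was the smallest of the class (edgeR adjusted p = 0.00655), although its groups did not overlap either.

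The largest falls in H4 were those of Hist4h4, Hist1h4f and Hist2h4, each with at most 24.6% of its windows shared with other genes. Hist4h4 (chr6:136801553-136804415), the only member of the Hist4 cluster, had 19.6, 27.4 and 26.7 CPM in the controls and 15.5, 12.1 and 16.1 CPM in cKO. The 3 cKO samples were the lowest, and the log2 fold change of -0.79 ± 0.12 was the largest of all members called (edgeR adjusted p = 0.000209). Hist2h4 (chr3:96261682-96263311), none of whose 75-base windows occur in another gene, had 76.3, 85.2 and 89.3 CPM against 56.3, 50.5 and 64.1 CPM. Its change of -0.58 ± 0.072 on the log2 scale had the smallest adjusted p of the members (edgeR adjusted p = 4.36e-05) and was -0.50 without cKO replicate 2. Hist1h4f (chr13:23551258-23551648), with 24.6% of its windows shared, had 56.5, 63.2 and 60.6 CPM against 40.9, 30.4 and 47.3 CPM, a log2 fold change of -0.63 ± 0.11 (edgeR adjusted p = 0.000654). In each of these 3 genes no cKO sample reached the level of a control sample.

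The remaining H4 genes, Hist1h4a, Hist1h4b, Hist1h4c, Hist1h4i, Hist1h4j, Hist1h4m and Hist1h4n, had log2 fold changes of -0.51 to -0.33, all called lower and all without overlap in CPM. Hist1h4i was the weakest of them (-0.33 ± 0.087; edgeR adjusted p = 0.017), and its adjusted p was 0.0838 without control replicate 2. Without cKO replicate 2 the log2 fold changes of Hist1h4i, Hist1h4j, Hist1h4m and Hist1h4n moved by more than 1.5 times, to -0.19, -0.29, -0.30 and -0.30, and each remained called. These last 4 are the H4 genes that DESeq2 did not call. Hist1h4m and Hist1h4n share 89.0% and 83.4% of their windows with other genes, so their values are not independent of each other. In all 13 H4 genes cKO replicate 2 was the lowest of the 6 samples, and control replicate 2 was the highest in 12.

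**Figure D3:**
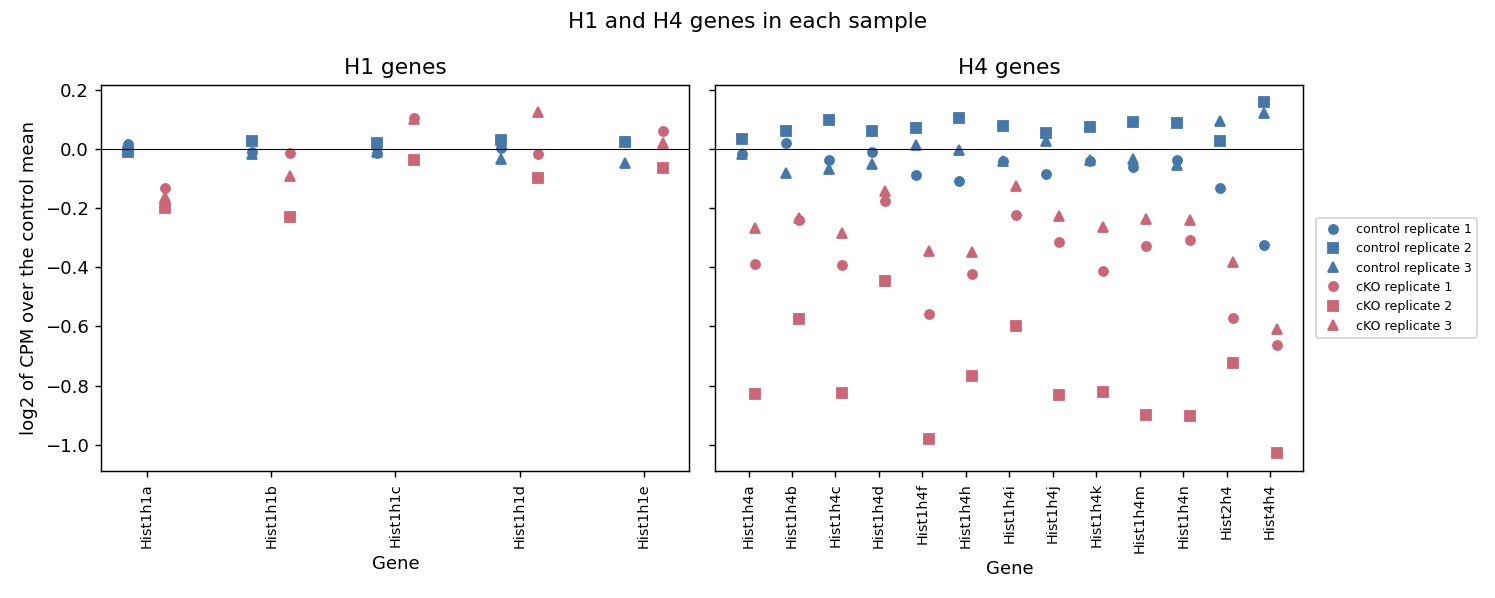
Log2 of the CPM in each sample over the mean of the controls (y axis) for the 5 tested H1 genes and the 13 H4 genes (x axis), with colours for the groups and symbols for replicate numbers. All cKO points of every H4 gene lie below its control points and the squares of cKO replicate 2 lie lowest, whereas only Hist1h1a separates the groups among the H1 genes.

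The H1 genes encode linker histones of different sequence, and shared at most 28.4% of their windows with other genes. Hist1h1a (chr13:23763666-23764406) had 117, 115 and 116 CPM in the controls and 106, 101 and 104 CPM in cKO. Its groups did not overlap and it was the only H1 gene called, at -0.19 ± 0.032 on the log2 scale (edgeR adjusted p = 0.000723), which held in all 6 fits without a sample. Hist1h1b had 95.9, 98.6 and 95.6 CPM against 95.7, 82.5 and 90.7 CPM, with overlap and a log2 fold change of -0.13 ± 0.047 (edgeR adjusted p = 0.0661). Hist1h1e, which received the most counts of the H1 genes, had 190, 190 and 181 CPM against 195, 179 and 189 CPM, a change of -0.02 ± 0.038 on the log2 scale (edgeR adjusted p = 0.817). Hist1h1c and Hist1h1d had log2 fold changes of 0.03 ± 0.040 and -0.02 ± 0.048. In Hist1h1c, Hist1h1d and Hist1h1e the cKO samples lay on both sides of the controls. The testis-type Hist1h1t, with 7 to 18 counts per library, was too low to test.

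The models of those last 3 H1 genes run well past the hairpin: 840, 4884 and 1153 annotated bases follow the stem-loop in Hist1h1c, Hist1h1d and Hist1h1e. Models with several exons or over 1000 bases were annotated for 19 members. The 18 of them tested had a median log2 fold change of -0.20, and the 42 others -0.26. Some of the others also run past the stem-loop: in Hist1h4c, Hist1h4j, Hist1h3e and Hist1h4i, 454, 385, 369 and 330 annotated bases follow it. In H1 the medians with and without models of several exons or over 1000 bases were -0.02 (3 genes tested) and -0.16 (2 tested). In H2A they were 0.12 (2 tested, Hist1h2ac and Hist3h2a) and -0.21 (13 tested). In H2B they were -0.20 (7 tested) and -0.22 (10 tested), and in H3 -0.22 (3 tested) and -0.26 (7 tested). In H4 they were -0.58 (Hist1h4d, Hist2h4 and Hist4h4) and -0.49, although the sums of these 2 sets of H4 genes were 22.1% and 27.7% lower in cKO. The H1 genes without such models, Hist1h1a, Hist1h1b and Hist1h1t, summed to 213, 214 and 211 CPM in the controls and 202, 184 and 195 CPM in cKO, 9.15% lower and without overlap, whereas Hist1h1c, Hist1h1d and Hist1h1e together were 464, 469 and 451 against 478, 441 and 486 CPM. How far the order of the classes rests on the gene models was not tested. Counts per gene do not separate transcripts that end at the stem-loop from longer ones.

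H3 is the class whose replacement form HIRA deposits. Hist1h3b (chr13:23752267-23752886), the most abundant H3 gene per length with 169 CPM per kb, had 116, 119 and 107 CPM in the controls and 97.3, 87.6 and 100 CPM in cKO. The groups were apart, and the log2 fold change was -0.29 ± 0.050 (edgeR adjusted p = 0.000919). Hist1h3g had 84.0, 84.7 and 78.9 CPM against 68.0, 62.5 and 75.9 CPM, and also changed by -0.29 ± 0.057 on the log2 scale (edgeR adjusted p = 0.00247). Hist1h3i had 53.7, 54.8 and 53.1 CPM against 46.2, 40.9 and 49.3 CPM (log2 fold change -0.27 ± 0.056; edgeR adjusted p = 0.00333), with 78.3% of its windows shared. The largest fall in the class was in Hist1h3d, from 63.8, 61.7 and 56.0 CPM to 47.8, 46.6 and 54.1 CPM (log2 fold change -0.31 ± 0.058; edgeR adjusted p = 0.00137). These 4 genes were called in each fit without a sample.

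The exception in H3 was Hist1h3e, which had 88.1, 89.6 and 81.6 CPM against 88.3, 76.2 and 86.3 CPM, overlapping, with a log2 fold change of -0.07 ± 0.052 (edgeR adjusted p = 0.422). The 4 genes that share the protein of Hist1h3a had a median log2 fold change of -0.26, and the 6 other H3 genes tested -0.22. Hist2h3c2 of the Hist2 cluster had 62.5, 60.1 and 55.8 CPM in the controls. In cKO it had 55.0, 48.7 and 55.1 CPM, and was called lower at -0.19 ± 0.053 on the log2 scale (edgeR adjusted p = 0.0211). Hist1h3a and Hist1h3c were at -0.12 and -0.13 without cKO replicate 2. Hist2h3c2, Hist1h3a and Hist1h3c were not called in the fits without cKO replicate 2, control replicate 1 or control replicate 2, and Hist1h3f not in those without control replicate 1 or control replicate 2. Hist1h3a was also lost without control replicate 3. The H3.3 genes did not pass the test. H3f3b had 490, 500 and 510 CPM against 520, 514 and 531 CPM, and every cKO sample was higher, as in 20.3% of all genes tested. Its log2 fold change was 0.04 ± 0.031 (edgeR adjusted p = 0.507). H3f3a had a log2 fold change of -0.01 ± 0.047 (edgeR adjusted p = 0.943).

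H2B joins H2A in the outer part of the nucleosome core. Hist1h2bn, with 173 CPM per kb the most abundant H2B gene per length, had 70.7, 71.4 and 66.9 CPM in the controls and 63.6, 56.3 and 66.3 CPM in cKO. The groups were separated narrowly, with a log2 fold change of -0.19 ± 0.053 (edgeR adjusted p = 0.0211). Hist1h2bb had 74.4, 77.3 and 69.6 CPM against 66.9, 50.6 and 66.8 CPM, a change of -0.29 ± 0.081 on the log2 scale (edgeR adjusted p = 0.0236). Hist1h2bj had 53.0, 51.6 and 47.3 CPM against 45.1, 37.3 and 46.5 CPM, and a log2 fold change of -0.26 ± 0.069 (edgeR adjusted p = 0.016). All 3 lost their call without control replicate 1 or control replicate 2, and without cKO replicate 2 their log2 fold changes were -0.12, -0.16 and -0.17. Hist1h2bm (chr13:21722044-21722567) showed the largest fall of the class, from 30.0, 31.8 and 30.7 CPM to 27.0, 22.2 and 26.5 CPM. Its log2 fold change of -0.32 ± 0.063 (edgeR adjusted p = 0.00258) stayed called in all 6 fits without a sample.

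Besides these 4, Hist1h2bh, Hist1h2bk, Hist1h2bp and Hist1h2br were called lower, with log2 fold changes of -0.28 to -0.20. Without cKO replicate 2, Hist1h2bh was at -0.17 and Hist1h2bp at -0.14. Hist1h2bp and Hist1h2br were then not called (edgeR adjusted p = 0.128 and 0.0554), nor were Hist1h2bh, Hist1h2bp and Hist1h2br without control replicate 2 (edgeR adjusted p = 0.0826, 0.178 and 0.0998). Hist1h2bh and Hist1h2br also lost their calls without control replicate 1, and Hist1h2bp without control replicate 3, while Hist1h2bk was called in all 6 fits. DESeq2 did not call Hist1h2bb or Hist1h2bh (DESeq2 adjusted p = 0.172 and 0.133). It called Hist1h2bg and Hist1h2bq instead (DESeq2 adjusted p = 0.0234 and 0.0317). Hist1h2bq and Hist1h2br, whose windows are shared for 96.1% and 87.6%, had nearly the same log2 fold change (-0.20 each), 1 on either side of the threshold (edgeR adjusted p = 0.0571 and 0.0195). The testis-type Hist1h2ba had 12.8, 11.6 and 10.9 CPM against 11.6, 8.49 and 11.7 CPM, with 33.2% of its windows shared, and a log2 fold change of -0.18 ± 0.10 (edgeR adjusted p = 0.278). Hist2h2be had 2.49, 2.83 and 2.28 CPM against 2.57, 2.82 and 2.69 CPM, and the groups overlapped.

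H2A received the fewest counts of the core histone classes, and its levels are the least certain. Of the 18 H2A genes, 15 overlapped on the opposite strand a miRNA gene model of 129 to 144 bases, and all 15 such models had 0 counts in every library. The median share of 75-base windows free of any other gene's exons was 50.8% in H2A and 100% in each other class. Hist1h2ak had the highest level per length (22.1 CPM per kb), with 8.77, 9.71 and 9.10 CPM in the controls and 8.55, 6.91 and 8.96 CPM in cKO. Its groups overlapped, and the log2 fold change was -0.20 ± 0.088 (edgeR adjusted p = 0.142). Hist2h2ac had 11.2, 10.9 and 10.4 CPM against 10.8, 7.22 and 9.98 CPM (log2 fold change -0.25 ± 0.11; edgeR adjusted p = 0.153), and Hist1h2ah 6.01, 7.17 and 6.82 CPM against 6.15, 5.17 and 6.38 CPM (-0.21 ± 0.093; edgeR adjusted p = 0.161). Neither passed the test, and in both the groups overlapped.

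Hist1h2ai was the only H2A gene called lower, with 5.99, 7.25 and 5.64 CPM against 5.44, 4.72 and 5.23 CPM. Its change was -0.32 ± 0.098 on the log2 scale (edgeR adjusted p = 0.0349), with 89.3% of its windows shared, and it was not called without control replicate 2, cKO replicate 2 or cKO replicate 3 (edgeR adjusted p up to 0.204). DESeq2 did not call it (DESeq2 adjusted p = 0.0543). Hist3h2a (chr11:58954685-58956830) went the other way, with 8.35, 7.30 and 8.0 CPM in the controls and 10.2, 9.35 and 10.2 CPM in cKO. Every cKO sample was higher, and the log2 fold change was 0.31 ± 0.071 (edgeR adjusted p = 0.0065), called in all 6 fits without a sample. Of its exon bases, 33.0% overlap those of Trim17 on the same strand, and Trim17 itself had 84 to 137 counts per library. The other gene of the Hist3 cluster, Hist3h2ba, had 0.230, 0.300 and 0.326 CPM against 0.521, 0.389 and 0.358 CPM. These also did not overlap, yet the log2 fold change of 0.52 ± 0.28 did not pass the test (edgeR adjusted p = 0.253). Hist2h2ab had 0.760, 0.790 and 0.635 CPM against 0.584, 0.659 and 0.484 CPM, which overlapped.

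A further 5 genes of the Hist2 cluster, Hist2h2aa1, Hist2h2aa2, Hist2h2bb, Hist2h3b and Hist2h3c1, had 0 counts in all 6 libraries. None of them has a 75-base window free of another gene's exons on either strand, and they are the only members of which this is true. A count of 0 allows up to 3 counts per library, and where reads in overlapping exons were left unassigned it says nothing of the mRNA. The testis-type Hist1h2aa had 0 or 1 count per library.

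The order of the classes was also compared along chromosome 13. The Hist1 genes fall into a block at chr13:21715763-22043676 with 23 members and a second block at chr13:23531050-23934851 with 31. The median log2 fold change of the H4 genes was -0.48 in the first (5 genes) and -0.50 in the second (6 genes), that of H3 -0.26 (2 genes) and -0.22 (7 genes), and that of H2B -0.21 in both (8 and 7 genes). H4 thus had the lowest median of these classes in each block. By cluster the medians were -0.22 in Hist1 (52 genes tested, 29 lower), -0.25 in Hist2 (5 tested, Hist2h4 and Hist2h3c2 lower), 0.42 in Hist3 (2 tested) and -0.79 in Hist4, that is Hist4h4 alone.

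Genes with and without close copies had similar medians. Members with under 50% of their windows shared had a median log2 fold change of -0.22 (36 tested, 20 lower and 1 higher), and those with 50% or more -0.22 (24 tested, 12 lower). The 13 H4 genes, all called lower, ranged from 0% to 89.0% of windows shared.

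**Figure D4:**
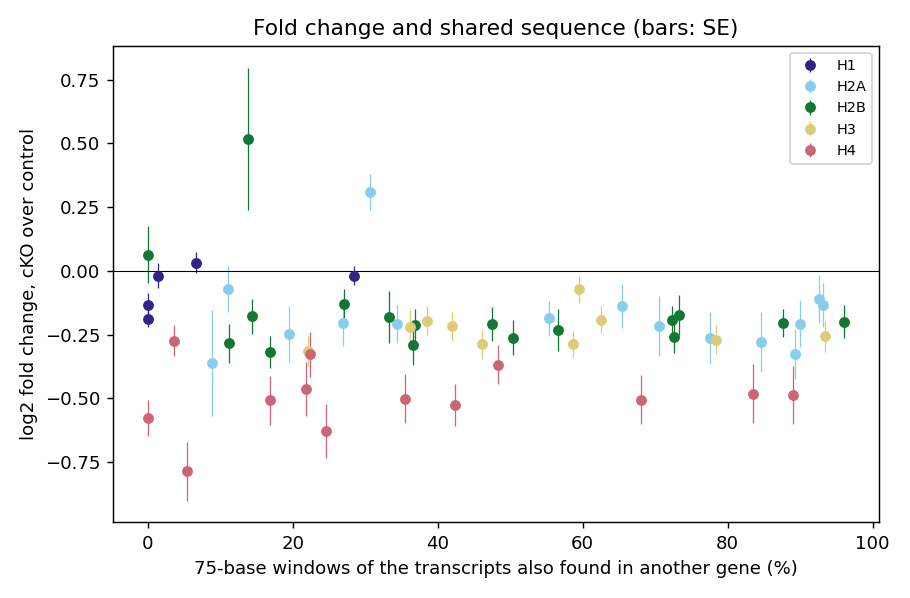
Fitted log2 fold change of cKO over control (y axis, ± SE) against the percentage of a gene's 75-base transcript windows that occur in another gene (x axis) for the 60 members tested, coloured by class. H4 genes are spread over the x axis: Hist1h4d (3.67%), Hist2h4 (0%) and Hist4h4 (5.39%) lie at -0.27, -0.58 and -0.79, and Hist1h4k, Hist1h4m and Hist1h4n, with 68.1% to 89.0%, between -0.51 and -0.48.

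Short transcripts in general had medians near 0. Among the other protein-coding genes tested, the 96 whose longest transcript was under 600 bases had a median log2 fold change of 0.02, and the 498 of at least 600 but under 1000 bases -0.01. Called lower were 6.25% (6 genes) and 5.22% (26 genes) of them. The 13845 genes of 1000 bases or more had a median of 0.00 (0.00396), and 8.44% were called lower. A measure of the libraries that was also lower in cKO was the share of counts on small non-coding RNA genes, most of it Rn7sk. It was 1.22% to 1.94% in the controls and 0.746% to 1.06% in cKO. Within the controls, replicate 3 had the highest share (1.94%) and the lowest sum of all members (2995 CPM). Control replicate 1 had the lowest share (1.22%) and the lowest H4 sum, 857 CPM against 938 and 883 CPM in replicates 2 and 3. In cKO replicates 1, 2 and 3 the share was 0.912%, 0.746% and 1.06%, beside H4 sums of 700, 542 and 747 CPM. This share was lowest in cKO replicate 2, as were the histone sums, and its part in the result was not tested. Macrophage markers were highest in cKO replicate 2 as well, and their part was not tested either.

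Genes that act on histone genes were counted by list, with each gene tested on its own, beside 6.46% lower and 9.38% higher over all genes tested. Of 12 genes for histone gene transcription, which include Npat, the cofactor of histone loci, Casp8ap2 and E2f1, 1 was lower (Pou2f1, the octamer-binding factor, log2 fold change -0.18 ± 0.044, edgeR adjusted p = 0.0122) and none was higher, a share of lower calls close to that of all genes. Npat had 47.9, 47.9 and 45.9 CPM against 46.9, 48.3 and 47.5 CPM, overlapping, with a log2 fold change of -0.02 ± 0.036. Of 22 tested genes for histone mRNA processing and turnover, 3 were lower: Tut4, a terminal uridylyltransferase (-0.28 ± 0.079; edgeR adjusted p = 0.0237), Xrn1, the 5′ to 3′ exonuclease (-0.24 ± 0.060; edgeR adjusted p = 0.0126), and Ddx19b, an RNA helicase (-0.14 ± 0.038; edgeR adjusted p = 0.0173). Pou2f1, Tut4, Xrn1 and Ddx19b each missed the threshold without control replicate 1 (edgeR adjusted p = 0.0768, 0.0818, 0.0675 and 0.0860). Tut4 also did without control replicate 3 and Ddx19b without control replicate 2 (edgeR adjusted p = 0.0908 and 0.0715). Slbp, whose protein binds the hairpins shown above, had 27.4, 27.9 and 28.3 CPM against 30.8, 30.5 and 29.0 CPM. All cKO samples were higher, but the log2 fold change of 0.09 ± 0.040 did not pass the test (edgeR adjusted p = 0.177). Lsm10 and Lsm11, of the U7 particle that cuts histone pre-mRNA, had log2 fold changes of 0.00 ± 0.096 and 0.11 ± 0.058, not called. Of 16 genes for the supply of histones to replicating DNA, none was called by edgeR.

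Genes of DNA replication, mitosis and cell-cycle exit were counted in the same way. Of 42 DNA replication genes 8 were lower and none higher, with a list median log2 fold change of -0.07, beside 6.46% lower and 9.38% higher over all genes tested. They included Lig1, Rfc4, Rrm2, Mcm3, Mcm5, Mcm6 and Mcm7, and the largest was Rfc4, a clamp loader subunit (-0.25 ± 0.072; edgeR adjusted p = 0.0288), a call lost without control replicate 2, control replicate 3 or cKO replicate 3 (adjusted p up to 0.127). Lig1, Mcm3, Mcm6 and Rrm2 were called in all 6 fits without a sample, and the other lower genes of the list were not. Fold changes were negative for 35 of the 42 genes, against 11280 of all 22404 genes tested. The list summed to 2262 to 2304 CPM in the controls and 2168 to 2216 CPM in cKO. Pcna, the sliding clamp, had 68.1, 73.7 and 72.1 CPM against 69.5, 69.9 and 67.2 CPM, with overlap and a log2 fold change of -0.07 ± 0.037 (edgeR adjusted p = 0.207). Of 24 mitosis genes 10 were lower and none higher, with a median of -0.10. Negative fold changes were found for 23 of the 24. This list summed to 2046 to 2071 CPM in the controls and 1841 to 1982 CPM in cKO. Bub1b, Cenpf, Kif11 and Nusap1 were called in all 6 fits without a sample, and the other lower genes of the list were not. The proliferation marker Mki67 had 383, 353 and 363 CPM against 259, 348 and 327 CPM, a log2 fold change of -0.26 ± 0.073 (edgeR adjusted p = 0.0235), not called without control replicate 1 or control replicate 3 (adjusted p = 0.0825 and 0.0740 in edgeR). In cKO its lowest sample was replicate 1, not replicate 2. Of 8 cell-cycle exit genes, Cdkn1a (-0.26 ± 0.043) and Rb1 (-0.23 ± 0.039) were lower and Cdkn1c (0.46 ± 0.064) was higher. Ccne1 and Ccne2, cyclins of S-phase entry, were at -0.06 ± 0.045 and 0.05 ± 0.038 on the log2 scale and were not called.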

How the data were processed

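RNA was sequenced as 75-base single-end reads from TruSeq Stranded Total libraries made from 400 ng RNA after Ribo-Zero treatment. The authors deposited raw counts per gene for each sample, and the submitters' processing notes name mm10, Bowtie2 2.3.4.2, featureCounts 1.6.3 and DESeq2 2.11.40.6. The strand setting and the treatment of reads matching several genes are not given in the sources used here. Deposited tables of normalized values and of a DESeq2 comparison (mean, log2 fold change, its SE, statistic and p-values) were not used. Samples were grouped by title. Counts were tested with edgeR 4.0.16 (R 4.3.3) by the quasi-likelihood test without covariates after filterByExpr and TMM scaling, with Benjamini-Hochberg adjustment over all genes tested and a threshold of 0.05. The SE is the log2 fold change over the root of the test statistic. CPM values are counts per 1000000 counts on genes, without TMM. The common biological coefficient of variation was 3.92%. Replicates differed by more than sampling noise. The code was tested on simulated data. Alternatives were DESeq2 1.42.0, a likelihood-ratio test, RLE or total-count scaling, no filter, a replicate block, and leaving out each sample. Windows of 75 bases were taken from GENCODE M21 transcripts and called shared when an annotated transcript of another gene held them in the same sense. The stem-loop was searched by its consensus in annotated transcripts; 3 pseudogenes with matching symbols were left out. Members, lists and tests were chosen with earlier results of these data known. Named were the 3 most abundant genes per length in each class, the largest called changes, every member of Hist2, Hist3 and Hist4, the testis types and genes of the lists that define them or changed most; others are named to complete a class. The fibroblast, endothelial and sarcomere marker lists are given with the other observations.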

Additional observations from a re-analysis of the deposited data

How the results depend on the processing

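The median log2 fold change of the members stayed negative in every fit run, between -0.28 and -0.15 when 1 sample was left out, and the number called lower was then 20 to 38. Restricting the members to those with at least 50% of their windows unshared left 20 lower of 36 tested, and an adjusted p under 0.01 left 20. Leaving out 1 sample gave class medians of -0.088 to 0.016 for H1 (the sign turned without cKO replicate 2, and under total-count scaling at 0.01), -0.25 to -0.11 for H2A, -0.27 to -0.12 for H2B, -0.30 to -0.16 for H3 and -0.62 to -0.35 for H4. The log2 ratio of the summed CPM was -0.22, -0.25 with RLE factors, -0.24 with TMM factors (chosen after seeing the data), and -0.27 to -0.14 without a sample. Total-count scaling is the scale of that sum itself. Of the 126 pathway genes, 24 were lower, 14 to 30 when a sample was left out (15 without control replicate 2, 14 without control replicate 3), and 1 was higher, against 2 under total-count scaling. Over all genes tested, 6.46% were lower and 9.38% higher in the fit reported. Same-numbered samples did not deviate together over the genes tested (correlations of -0.015 to -0.0046). This cannot exclude that they were matched in handling, and the authors used a paired t-test for their RT-qPCR of satellite cells. With the replicate block 29 members were lower, 1 was higher and the median was -0.22. Over single members, 44 of 720 alternative values lost a call, 30 gained a call, and none reversed. With 3 samples a group, an exact permutation test of a single value cannot go below 0.1, and depth limits Hist3h2ba, Hist2h2ab, Hist1h1t and Hist1h2aa.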

Other observations

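Other cell types' markers moved between the groups in the same libraries. The counts of calls below stand beside 6.46% lower and 9.38% higher over all genes tested. Of 12 fibroblast markers tested, 9 were higher in cKO and none lower; their sum was 1880 to 1986 CPM in the controls and 2459 to 2781 CPM in cKO. Of 14 endothelial markers, 5 were higher and none lower, with sums of 24.8 to 26.9 and 35.2 to 42.7 CPM. Of 16 sarcomere differentiation markers, 9 were lower and none higher, with sums of 40048 to 41471 and 32565 to 35661 CPM. Their part in the histone values was not tested.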
